A study of Homo sapiens with 28 samples.

Results

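Receptors that carry growth and differentiation signals into sympathetic neuroblasts were followed in SK-N-AS neuroblastoma cells: RET, its co-receptors GFRA1, GFRA2 and GFRA3, ALK, the TRK receptors NTRK2 and NTRK3, and NGFR. These 8 genes, of 19775 with a probe set on the array, were chosen by name, and every probe set that the platform annotation gives to them was used. This gave 28 probe sets: 3 for RET, 3 for GFRA1, 2 each for GFRA2, GFRA3 and ALK, 6 for NTRK2, 9 for NTRK3 and 1 for NGFR.

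The parent line, SK-N-AS, comes from a human neuroblastoma and does not carry MYCN amplification. In the MYCN line, called SK-N-AS-tet in the labels, doxycycline switches on MYCN, and 21 arrays followed it at times 0, 4, 8, 24, 48, 96 and 192 (unit not stated) in 3 replicates. The mock line, also derived from SK-N-AS and carrying the tet repressor vector pcDNA6TR, was harvested after doxycycline at the same 7 times, with 1 array at each. Each arm is 1 derivative line, both were grown with fetal calf serum and both received the drug, and the labels do not say whether either line grew from a single clone. Nothing in the labels says that the replicates were separate cultures, so p-values measure the spread between these arrays, which may be technical.

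RET is a receptor tyrosine kinase that binds ligands of the GDNF family only together with a GFRA co-receptor held in the membrane by a lipid anchor. It is needed for the enteric nervous system and acts in sympathetic neurons. ALK is a receptor tyrosine kinase that carries activating mutations in some neuroblastomas. NTRK2 and NTRK3 encode TrkB and TrkC, the receptors of BDNF and neurotrophin-3, and NGFR encodes p75NTR, a receptor of the TNF receptor family that binds all neurotrophins and has no kinase. MYCN is a transcription factor that binds DNA with MAX, preferring the letters CACGTG, the canonical E-box.

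RET fell as MYCN was induced, while it rose in the mock line. At time 192 the fall in the individual replicates was by a factor of 11.4 to 62.7 in its brightest probe set. It was 7.66 to 16.4 in 205879_x_at and 10.0 to 25.2 in 215771_x_at. GFRA2 and NGFR read higher in every mock array than in any array of the MYCN line. The other 5 genes lay mostly below the median signal of their arrays in both lines.

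RET is the member that was called over time, so its promoter windows are shown. RefSeq promoter windows (GRCh38.p14, from 250 bases before to 50 bases after a gene start) were used for 6 of the 8 genes. There were 14 windows in all, and none was used for GFRA2 or NGFR. RET has 2 of the 14, both on the plus strand of chromosome 10. The first, chr10:43076819-43077118, is 78.7% G and C. The second, chr10:43104515-43104814, is 58.7% G and C. Capitals mark matches on either strand to CACGCG, a non-canonical E-box, and to the GC box, GGGCGG.
RET, first start: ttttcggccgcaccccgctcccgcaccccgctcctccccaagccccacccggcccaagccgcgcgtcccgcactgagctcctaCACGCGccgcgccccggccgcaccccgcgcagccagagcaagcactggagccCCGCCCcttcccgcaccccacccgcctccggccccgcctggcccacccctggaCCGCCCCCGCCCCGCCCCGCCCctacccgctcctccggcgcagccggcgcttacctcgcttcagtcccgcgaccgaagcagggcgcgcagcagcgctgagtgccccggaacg
RET, second start: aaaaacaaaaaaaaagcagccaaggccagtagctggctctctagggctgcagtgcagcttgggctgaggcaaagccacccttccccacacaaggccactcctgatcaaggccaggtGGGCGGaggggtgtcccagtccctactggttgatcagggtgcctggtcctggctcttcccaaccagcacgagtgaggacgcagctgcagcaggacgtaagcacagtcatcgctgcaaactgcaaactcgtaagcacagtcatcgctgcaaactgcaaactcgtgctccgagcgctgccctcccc

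The first RET window holds CACGCG once, 167 bases before the start, and 5 GC boxes on the minus strand, the last 3 of which share a base with a neighbour. The second window holds 1 GC box on the plus strand. Neither window holds the letters CACGTG or CATGTG. Among 35116 RefSeq windows of the same length, 7.26% held CACGTG, 11.1% CATGTG, 11.4% CACGCG and 45% GGGCGG. Of the 14 windows used for these receptor genes, 1, 2, 4 and 8 held them, and unlike the 35116 these leave out chromosome 8. The single CACGTG lay in a window of ALK. A match is a description of the letters and shows no binding.

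As a check of the induction, the MYCN probe set 209756_s_at read 69.4, 79.2 and 103 at time 0 in replicates 1, 2 and 3. It read 1858, 1549 and 3098 at time 4 and 4778, 4280 and 4655 at time 48. At time 192 the 3 signals were 3273, 3065 and 3242. In the mock line it read 1.60 to 3 throughout, so MYCN at time 0 was already higher in the MYCN line than in the mock line.

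RET was measured by 3 probe sets, and 211421_s_at, the brightest, stands for the gene in the tests. In the MYCN line this probe set read 853, 1011 and 1116 at time 0 in replicates 1, 2 and 3 (mean 993 ± 132, SD, n = 3). Its signals were 594, 657 and 827 at time 4, then 529, 684 and 843 at time 8. All 6 of these early arrays lay under the 3 of time 0, with the replicates in the same order. At time 24 the signals were 453, 363 and 630 (482 ± 136). At time 48 they were 53.8, 122 and 665 (280 ± 335). Replicates 1 and 2 had by then lost most of the signal and replicate 3 had not. They fell further to 37.2, 24.2 and 199.8 at time 96 (87.1 ± 97.8) and 13.6, 29.8 and 98.1 at time 192 (47.2 ± 44.8). At none of the 6 later times did an array reach the lowest of time 0, and the last value of replicate 1 lay within the range of the array medians, 12.9 to 20.2.

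**Figure D1:**
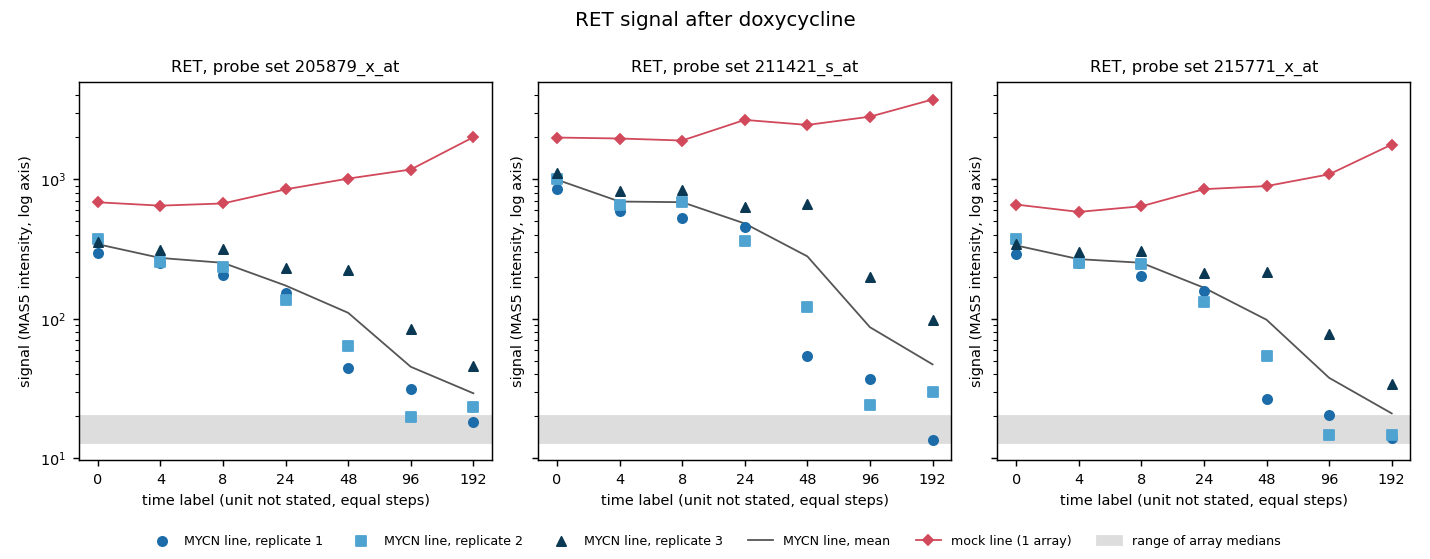
RET signal (log axis, MAS5 intensity) against the time label for each of the 3 RET probe sets: points are the replicates of the MYCN line, the grey line is their mean, the red line the single mock arrays and the grey band the range of array medians, 12.9 to 20.2. All 3 probe sets fall in the MYCN line, replicate 3 last, and rise in the mock line.

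When the 21 MYCN-line arrays were fitted with limma, 2 of the 8 genes, RET and NTRK3, were bright enough to be tested (mean log2 signal at or above that of a signal of 12.8). Against time 0, no member passed an adjusted p of 0.05 at times 4, 8 or 24, where 0.00843%, 0.767% and 7.18% of all 11865 genes tested did. No member had an unadjusted p under 0.05 there either. RET fell by 0.53, 0.55 and 1.07 on the log2 scale at these times (SE 0.77, limma adjusted p = 0.962, 0.916 and 0.446).

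At time 48, RET fell by 2.59 on the log2 scale (SE 0.77, limma adjusted p = 0.0284), 1 member called where 14.7% of all genes were. The call at time 48 ended without replicate 1 (a fall of 1.90, adjusted p = 0.300) or replicate 2 (2.37, adjusted p = 0.303). It also ended without any single array of time 0, without the time 48 array of replicate 1 or of replicate 2, and in a fit of times 0 and 48 alone (adjusted p = 0.0704). At time 96, RET fell by 4.13 (SE 0.77, limma adjusted p = 0.000715; 23.4% of all genes called), a call that ended without replicate 2 (3.50, adjusted p = 0.0856). At time 192 it fell by 4.85 (SE 0.77, limma adjusted p = 0.000126), beside 25.8% of all genes called and 14.1% called lower. RET at time 192 was called in 19 of 19 alternative settings, where it ranged from -5.62 to -4.19. The fit without replicate 3 stands 2 times in this count, since another setting kept only replicates 1 and 2. Of the 11865 genes, 5 (0.0421%), RET included, had a change at or below that of RET. The F-test over the 6 times called RET (limma adjusted p = 0.000200; 25.4% of all genes called), and not without replicate 2 (adjusted p = 0.0891).

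The 7 levels of RET in the MYCN line were in falling order from time 0 to time 192, yet no neighbouring pair of times differed beyond the spread. The changes were -1.52 from time 24 to 48 (limma adjusted p = 1.0), -1.53 from 48 to 96 (0.844) and -0.73 from 96 to 192 (0.961). No member was called in any of the 6 neighbouring comparisons in turn, where 0.00843%, 0.48%, 0.674%, 0%, 0.0169% and 0.00843% of all genes tested were. By this probe set RET had no unadjusted p under 0.05 there. The dimmer RET probe sets did, 215771_x_at from time 24 to 48 (limma unadjusted p = 0.0385) and from 48 to 96 (0.0444), and 205879_x_at from 48 to 96 (0.0249). Without replicate 3, RET was called between times 24 and 48.

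The other RET probe sets moved with the first. Probe set 205879_x_at read 298, 376 and 354 at time 0 and 18.2, 23.4 and 46.2 at time 192. Probe set 215771_x_at read 292, 373 and 342 at time 0 and 14, 14.8 and 34.2 at time 192. In both, the groups did not overlap and replicate 3 was again highest at time 192. With probe sets tested singly, 3 of the 6 member probe sets bright enough were called lower at time 192, all of RET, beside 18.6% of 24655 probe sets called. Their changes were -3.66 (SE 0.49), -4.85 (SE 0.76) and -4.12 (SE 0.58), with limma adjusted p of 3.58e-05, 0.000161 and 5.32e-05. With 16 added to the signal before log2 the count was 4, the fourth being NGFR. Over the 28 arrays their log2 signals had pairwise Pearson r of 0.987 to 0.997. Each of them carries the suffix _s_at or _x_at, by which Affymetrix marks probes shared by several transcripts or possibly read by other sequences, so no unmarked probe set measures RET here.

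At the late times RET differed between the replicates. In replicates 1 and 2, RET at time 48 was 6.30% and 12.1% of its own time 0 signal, while in replicate 3 it was 59.6%. The shares were 4.36%, 2.39% and 17.9% at time 96 and 1.59%, 2.95% and 8.79% at time 192. Whether arrays with the same replicate number belong together was not shown at any of these times. The shares therefore only set same-numbered arrays beside each other. In signal as well as in share, replicate 3 was above replicates 1 and 2 at all 3 late times. Its MYCN signal was the highest of the 3 at times 0, 4, 8 and 24 (103, 3098, 4202 and 4600), between the others at times 48 and 192 and the lowest at time 96 (3437). The part of MYCN level in the higher late RET of replicate 3 was not tested. Signals of the hybridisation control bioD split the arrays into a group with replicates 1 and 2 of the MYCN line (1544 to 1941) and a group with replicate 3 and the mock line (2322 to 2770). The part of this split in the higher late RET of replicate 3 was not tested. Within the first group, RET had changes of -1.19, -3.52, -4.95 and -5.53 at times 24, 48, 96 and 192. In these bulk samples, fewer cells with RET and less RET RNA per cell cannot be told apart.

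**Figure D2:**
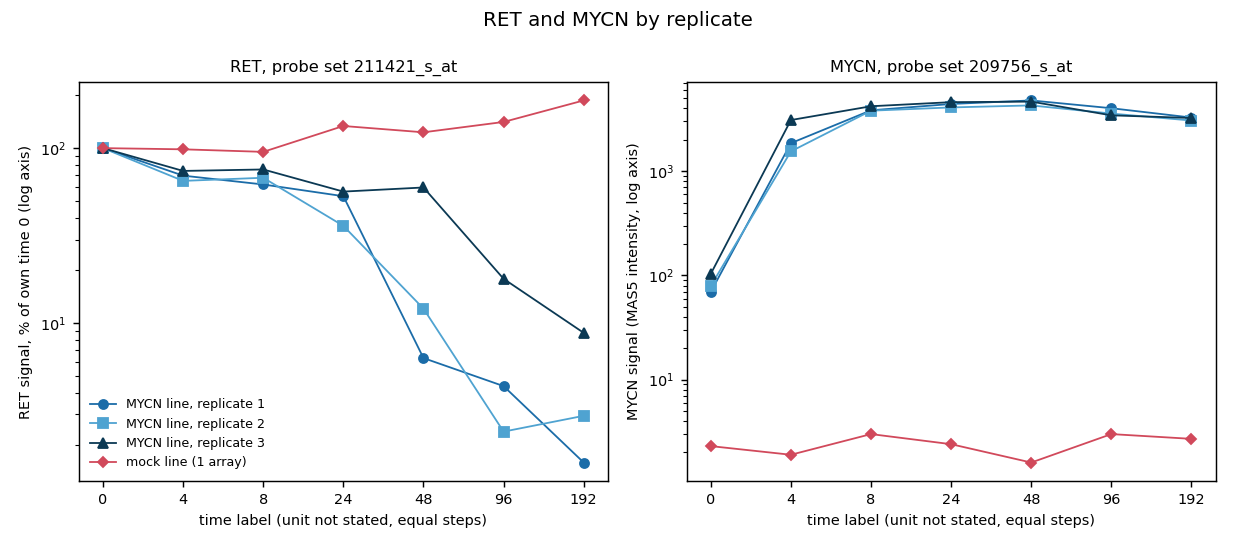
Left, RET signal as a percent of each replicate's own time 0 signal; right, MYCN signal (both log axes) against the time label. The 3 replicates of the MYCN line share the rise of MYCN, while RET at time 48 stood at 6.30%, 12.1% and 59.6%; the mock line ended at 187% for RET.

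In the mock line RET moved the other way. The brightest probe set read 1991, 1960, 1895, 2664, 2452, 2809 and 3730 from time 0 to time 192. The last array was the highest and the first 3 were the lowest. A line through the 7 arrays rose by 0.15 per time step on the log2 scale (SE 0.03, limma adjusted p = 0.0197), 1 of 2 members tested, where 3.13% of all genes were called and 1.61% were called higher. With 1 array at each time the trend leans on single arrays: it was not called without the array of time 4 (0.15, adjusted p = 0.0860) or of time 192 (0.11, adjusted p = 0.0567).

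Between the lines, the RET trend differed by -0.998 per time step (MYCN line minus mock line, SE 0.19, limma adjusted p = 0.000346), beside 24% of all genes called and 12.8% called lower. This difference was called in 11 of 11 alternatives, from -1.16 to -0.68, the smallest being within the group of replicate 3 and the mock line (adjusted p = 0.000346). Of the 11865 genes, 77 (0.649%) were called higher over time in the mock line and lower at time 192 in the MYCN line, RET among them. The mock line already read 2.0 times the mean of the MYCN line at time 0, and 79.1 times at time 192. Against replicate 3 alone the ratio went from 1.78 to 38.0. At none of the 7 times did a mock array overlap the MYCN line in any RET probe set.

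GFRA1, GFRA2 and GFRA3 bind chiefly GDNF, neurturin and artemin respectively and present them to RET. GFRA2 separated the lines, and over the times of the MYCN line it was not called (limma F-test without the filter, adjusted p = 0.932). Its probe set 205721_at read 148, 162, 206, 164, 180, 198 and 112 in the mock line from time 0 to time 192. In the MYCN line it read 0.8 at the lowest, 2 at the median and 21.5 at the highest array. Probe set 205722_s_at read 59.9 to 78.9 in the mock line and 0.7 to 13.5 in the MYCN line. The lines did not overlap in either, and in the MYCN line only 1 of 42 values lay above its array's median. GFRA1 probe sets read 0.5 to 13 in the MYCN line and 0.3 to 10.4 in the mock line. Those of GFRA3 read 0.7 to 13.5 and 0.7 to 8.70. None of the GFRA1 and GFRA3 values exceeded the median of its array.

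NGFR was dim in the MYCN line and its replicates scattered widely. Its probe set read 13.1, 20.4 and 22.5 at time 0, then 18.3, 8.50 and 21.3 at time 4. Its signals were 2.30, 5.20 and 16 at time 8. Later readings were 1.80, 1.40 and 17.5 at time 48 and 1, 4.10 and 6.90 at time 192. The 3 arrays of time 192 lay below the 3 of time 0, and at time 48 replicate 3 again lay apart from the other two. In a fit without the filter on dim genes the difference at time 192 was -2.58 (SE 1.03), which did not pass the threshold (limma adjusted p = 0.113; unadjusted p = 0.0212). Tested among probe sets with 16 added to the signal, it fell by 0.79 (SE 0.26) and was called (limma adjusted p = 0.0393). In the fit of genes without the filter and with nothing added to the signal, 1 of 8 members was called at time 192, RET, beside 13.6% of 19775 genes. The F-test called the same single member, and the other 7 had limma adjusted p from 0.369 (NGFR) to 0.956 (GFRA1). Mock arrays of NGFR read 46.1, 47.2, 27, 38.7, 24.7, 31.2 and 46.5, all above the 21 arrays of the MYCN line.

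**Figure D3:**
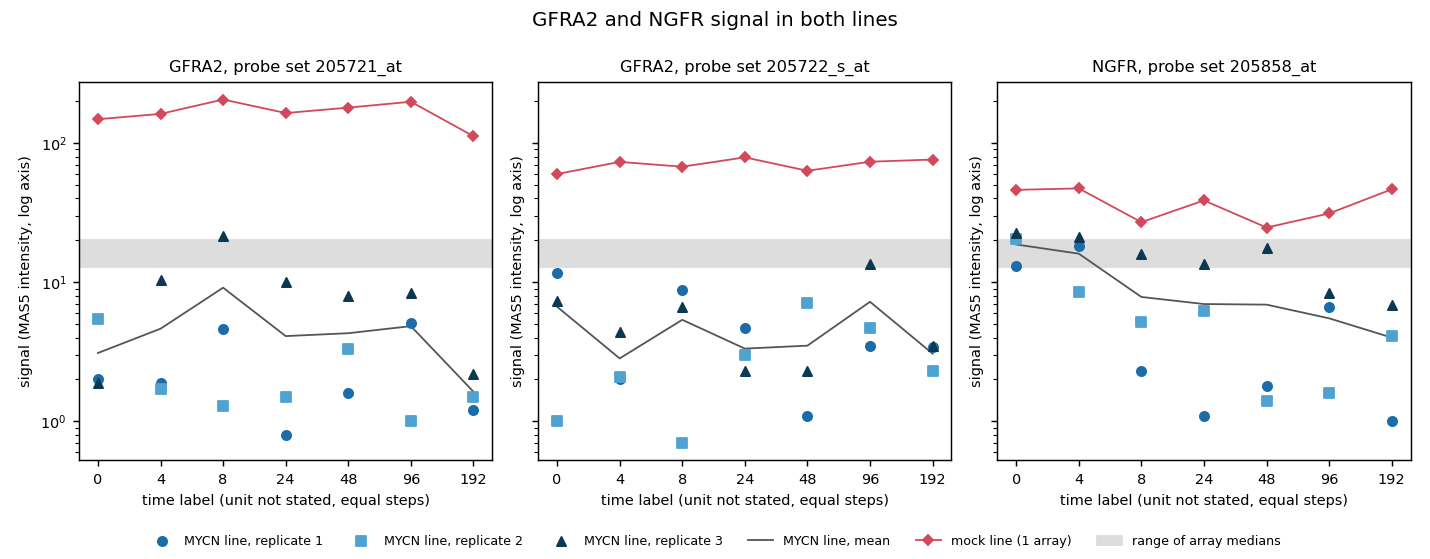
Signal (log axis, MAS5 intensity) of the 2 GFRA2 probe sets and of NGFR against the time label, with symbols as for RET. The mock arrays (red) lie above all arrays of the MYCN line in each panel; NGFR in the MYCN line reads 13.1 to 22.5 at time 0 and 1 to 6.90 at time 192.

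A comparison of the lines over all 28 arrays, chosen after these values were seen and made without the filter, gave 3 of 8 members called. Beside it stand 42.4% of all 19775 genes called and 24.3% called lower in the MYCN line, so the count of members is near the background. The sizes were -5.80 for GFRA2 (SE 0.50, limma adjusted p = 2.12e-10), -3.26 for RET (SE 0.54, 1.31e-05) and -2.55 for NGFR (SE 0.50, 0.000130). A change of at least 4-fold was called for 3.44% of all genes. The size for GFRA2 is set against signals of the MYCN line that lay, but for 1, under their array's median, and so is uncertain. For RET this difference holds its fall in the MYCN line as well as the gap at time 0. Within the group of replicate 3 and the mock line the differences were smaller: -4.61 for GFRA2 (adjusted p = 1.42e-06), -2.32 for RET (0.00216) and -1.37 for NGFR (0.00265), with 31% of all genes called. With log2 of the signal plus 16, which damps dim values, they were -3.17 for GFRA2 and -1.11 for NGFR.

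Marker genes also differed between the lines. The summed signal of 9 noradrenergic markers was 554 to 622 at time 0 in the MYCN line, 520 to 622 at time 192, and 2062 to 2735 in the mock line. Among the 5 tested, 1 was called higher and 2 lower at time 192 in the MYCN line, beside 11.6% and 14.1% of all genes. They were GATA3 (0.39), ISL1 (-0.43) and CHGA (-3.06, to a signal below the filter), with limma adjusted p of 0.0239, 0.0334 and 0.0398. PHOX2A, a homeobox factor of noradrenergic neurons, read 582 to 1133 in the mock line and 1.20 to 15.4 in the MYCN line. DBH and TH, the enzymes that define noradrenaline synthesis, lay at 0.7 to 8.70 and 0.4 to 6.60 over both lines, so the defining enzymes of that cell type were near background in both lines. The summed signal of 10 mesenchymal markers was 11725 to 12994 at time 0, 10709 to 11364 at time 192 and 8986 to 10310 in the mock line. Of the 9 tested, 2 were called higher and 3 lower at time 192 in the MYCN line. CD44 changed by 1.37 and FOSL1 by 1.80, while FN1 changed by -2.99, TWIST1 by -0.87 and PRRX1 by -0.58 (limma adjusted p = 0.00273, 0.00199, 4.37e-07, 0.00560 and 0.0467). Of 4 blood cell markers, the sum was 31.7 to 50.1, 20.8 to 32.4 and 230 to 296, with PTPRC, the leukocyte antigen CD45, at 1 to 36.2 in the MYCN line and 198 to 262 in the mock line. Sums of 5 Schwann cell, 4 endothelial and 4 epithelial markers lay between 2.70 and 110. No marker was at 0. The part of these differences in those of GFRA2, RET and NGFR, and of the moves of noradrenergic and mesenchymal markers in the fall of RET, was not tested.

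ALK had 2 probe sets. Probe set 208211_s_at read 1.10 to 16.4 in the MYCN line and 1.40 to 15.8 in the mock line, and 208212_s_at read 1.60 to 15.6 and 4.50 to 10.8. Of the 42 values of the MYCN line, 3 exceeded their array's median, and none of the mock line did. Neither ALK probe set passed the filter. In the fit without it, the difference at time 192 was 0.49 (SE 0.62), which did not pass the threshold (limma adjusted p = 0.726, and 0.728 for the F-test).

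Of the TRK receptors, NTRK2 was read by 6 probe sets. The brightest, 207152_at, read 5.30 at the lowest, 11.1 at the median and 19.9 at the highest array of the MYCN line, and 9.30, 14.2 and 21.4 in the mock line. The other 5 read 0.2 to 9.90. The change of 207152_at at time 192 was -0.53 (SE 0.47, limma adjusted p = 0.501). NTRK3 was read by 9 probe sets, from 0.2 to 25.7, and its representative 217033_x_at read 2.80, 14 and 23.2 (lowest, median, highest) in the MYCN line and 14, 20 and 23.9 in the mock line. Its changes against time 0 ran from -0.87 at time 96 to 0.14 at time 4 (SE 0.51), with limma adjusted p of 0.234 and 0.988. The lines overlapped in all 15 probe sets of NTRK2 and NTRK3. Over the 22 probe sets that do not belong to RET, GFRA2 or NGFR, 43 of 616 values (6.98%) exceeded their array's median.

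**Figure D4:**
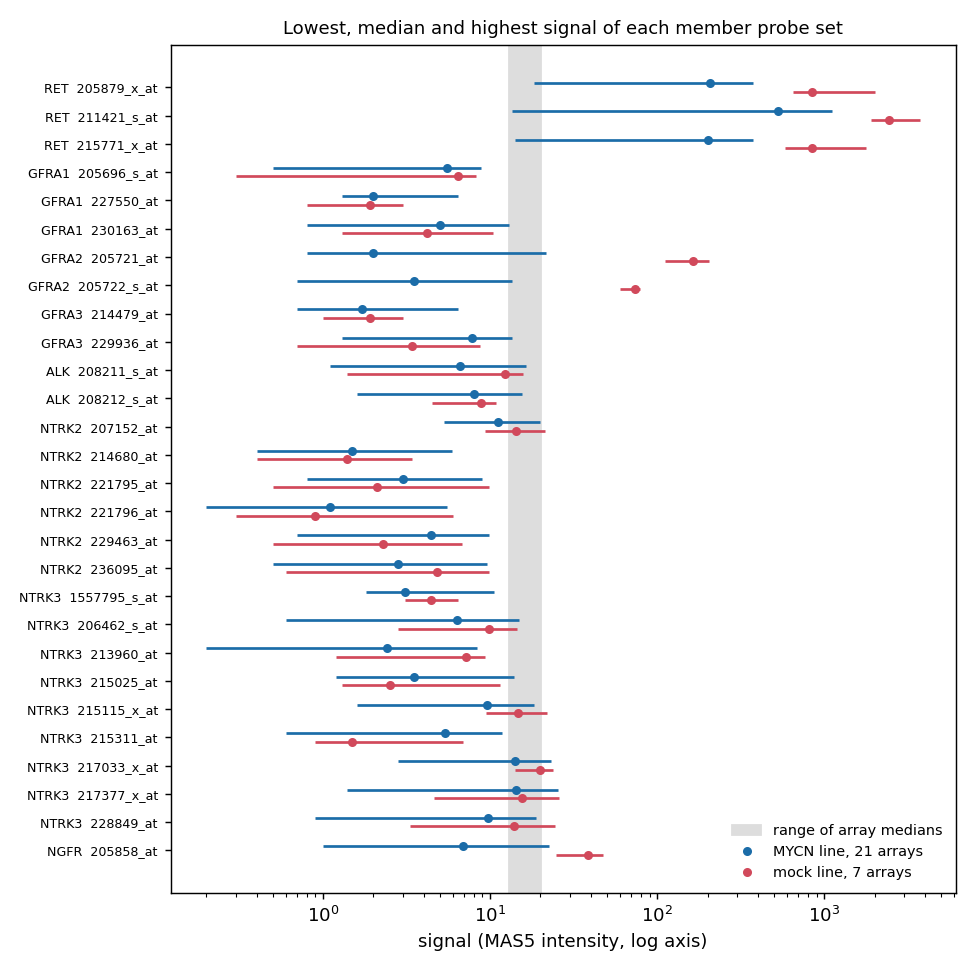
Lowest, median and highest signal (log axis, MAS5 intensity) of each of the 28 probe sets in the 21 arrays of the MYCN line (blue) and the 7 of the mock line (red), with the range of array medians in grey. The bars of the lines are apart for RET, GFRA2 and NGFR, and overlap for the others, which reach no higher than 25.7; levels of different probe sets are not to be compared.

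The genes most like RET over the 28 arrays, by Pearson r of log2 signal among all genes tested, were PRSS12 (r = 0.987), COL3A1 (0.981), SYNPO2 (0.978), TUBA1A (0.976) and SYT9 (0.975). These arrays share the induction and the gap between the lines. Within the 21 arrays of the MYCN line r was 0.961 to 0.982, while within the 7 mock arrays it ran from -0.42 for TUBA1A to 0.883 for PRSS12. PRSS12, which encodes the secreted protease neurotrypsin, read 354 ± 56.3 at time 0 and 55.7 ± 24.2 at time 192 (SD, n = 3), and 540 and 748 in the mock line at those times. SYT9, a synaptotagmin, read 47.6 ± 13.3 and 2.63 ± 3.09, and 144 and 176 in the mock line. For NTRK3 the closest were CPLANE1 (r = 0.904) and ERMARD (0.792), and neither passed the threshold at time 192 (limma adjusted p = 0.438 and 0.220).

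Among ligands of these receptors, 4 of the 7 with a probe set were tested, and at time 192 none rose and 2 fell, beside 11.6% of all genes called higher and 14.1% called lower. Pleiotrophin (PTN), a heparin-binding growth factor, read 865 ± 169 at time 0 and 178 ± 39.0 at time 192 (SD, n = 3), a change of -2.28 (SE 0.33, limma adjusted p = 6.24e-05). Midkine (MDK), its relative, read 422 ± 128 and 113 ± 23.4, a change of -1.87 (SE 0.31, limma adjusted p = 0.000235). The groups did not overlap in either gene. In the mock line PTN read 842 at time 0 and 1462 at time 192, and MDK read 271 and 686; both were called higher over time there, 2 of the 4 ligands tested, beside 1.61% of all genes. Their trends differed between the lines by -0.50 and -0.53 per step (limma adjusted p = 0.000153 and 5.29e-05). Like RET, PTN and MDK fell in the MYCN line and rose in the mock line. Also tested, artemin (ARTN), the ligand of GFRA3, and PSPN were not called at time 192. Their changes were 0.69 and -0.14 (limma adjusted p = 0.341 and 0.755).

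Of other receptors for the same ligands, 2 of 10 with a probe set were bright enough, and 1 fell (14.1% of all genes called lower). Syndecan-3 (SDC3), a heparan sulphate proteoglycan that binds pleiotrophin, read 35.1 to 54.7 at time 0, 1.30 to 2.40 at time 192 and 61.2 to 82.7 in the mock line. Its change of -4.63 (SE 0.89, limma adjusted p = 0.000782) sets a low signal against one far below the filter, and it was -1.72 with 16 added to the signal.

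Of 25 adaptors and effectors tested, 3 rose and 3 fell at time 192, near the 11.6% of all genes called higher and 14.1% called lower, with a median change of -0.04 beside -0.03 for all genes tested. Those that rose were IRS2, an insulin receptor substrate (1.30, limma adjusted p = 0.0203), CBL, a ubiquitin ligase that acts on receptor kinases (0.40, 0.0115), and PTPN11, the phosphatase SHP2 (0.22, 0.00977). Those that fell were DOK4 (-1.26, limma adjusted p = 0.00703) and DOK1 (-0.73, 0.000378), docking proteins of receptor kinases, and SHC1 (-0.35, 0.000752), which links them to GRB2. DOK1 kept its call in 13 of 13 alternatives. The calls of IRS2 (without replicate 2, adjusted p = 0.290), DOK4 (without replicate 2, 0.110), CBL (without replicate 1, 0.230, or 3, 0.112) and PTPN11 (without replicate 1, 0.0731, 2, 0.0692, or 3, 0.0944) ended when 1 replicate was left out. With equal array medians, IRS2, CBL, PTPN11 and SHC1 were not called (limma adjusted p = 0.0516, 0.0575, 0.315 and 0.0799). Over all alternatives, CBL lost its call in 6 of 14 and PTPN11 in 7 of 14.

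Of 13 partners of p75NTR tested, 1 rose and 3 fell, beside 11.6% and 14.1% of all genes, so the 4 calls are near the 25.8% called among all genes; the median change was -0.01. SQSTM1, the autophagy receptor p62, read 1037 ± 79.2 at time 0 and 1854 ± 407 at time 192 (SD, n = 3), a change of 0.82 (limma adjusted p = 0.000965). MAGED1, the p75NTR-binding protein NRAGE, fell by 0.97 (limma adjusted p = 0.000406) and BEX3, called NADE for its binding to p75NTR, fell by 0.48 (3.45e-05). These 3 kept their calls in all of the 14, 14 and 13 alternatives run. ADAM17, a protease that sheds p75NTR, fell by 0.38 (limma adjusted p = 0.00721), a call that ended without replicate 1 (adjusted p = 0.111) or 2 (0.235).

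Of 10 transcription factors tested that are linked to RET or ALK expression, 2 rose and 2 fell, beside 11.6% and 14.1% of all genes, with a median change of -0.27. GATA2 changed by 0.84 (limma adjusted p = 0.0182) and GATA3 by 0.39 (0.0239). RARB, a retinoic acid receptor, changed by -1.16 (0.00554) and ISL1, a LIM-homeodomain factor, by -0.43 (0.0334). All 4 calls ended without replicate 1 (limma adjusted p = 0.187, 0.234, 0.0595 and 0.441 in that order). Those of GATA2, RARB and ISL1 ended without replicate 2 (0.199, 0.0501 and 0.0602), and those of GATA3 and ISL1 without replicate 3 (0.268 and 0.0659). Over all alternatives, GATA3 and ISL1 each lost their call in 7 of 14.

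Other receptor tyrosine kinases gave a comparison for RET. Of 46 with a probe set, 24 were tested, and at time 192 in the MYCN line 1 rose and 10 fell, beside 11.6% of all genes called higher and 14.1% called lower. Their median change was -0.29 against -0.03 for all genes tested. MET, the receptor of hepatocyte growth factor, read 114 ± 31.8 at time 0 and 344 ± 212 at time 192 (SD, n = 3), a change of 1.44 (SE 0.39, limma adjusted p = 0.00956) that was not called without replicate 2 (1.24, adjusted p = 0.183). PDGFRA and PDGFRB, the receptors of platelet-derived growth factor, fell. PDGFRA read 404 ± 21.5 and 69.0 ± 36.6, a change of -2.69 (SE 0.33, limma adjusted p = 9.84e-06), or -1.06 with the mean of all its probe sets (adjusted p = 0.0229). PDGFRB read 194 ± 9.29 and 58.8 ± 5.90, a change of -1.72 (SE 0.26, limma adjusted p = 8.45e-05). EPHA7, an ephrin receptor, changed by -1.60 (SE 0.33, limma adjusted p = 0.00134). Among these 24 and RET, RET had the lowest estimate, -4.85 (SE 0.77), and whether it differs from that of PDGFRA was not tested.

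**Figure D5:**
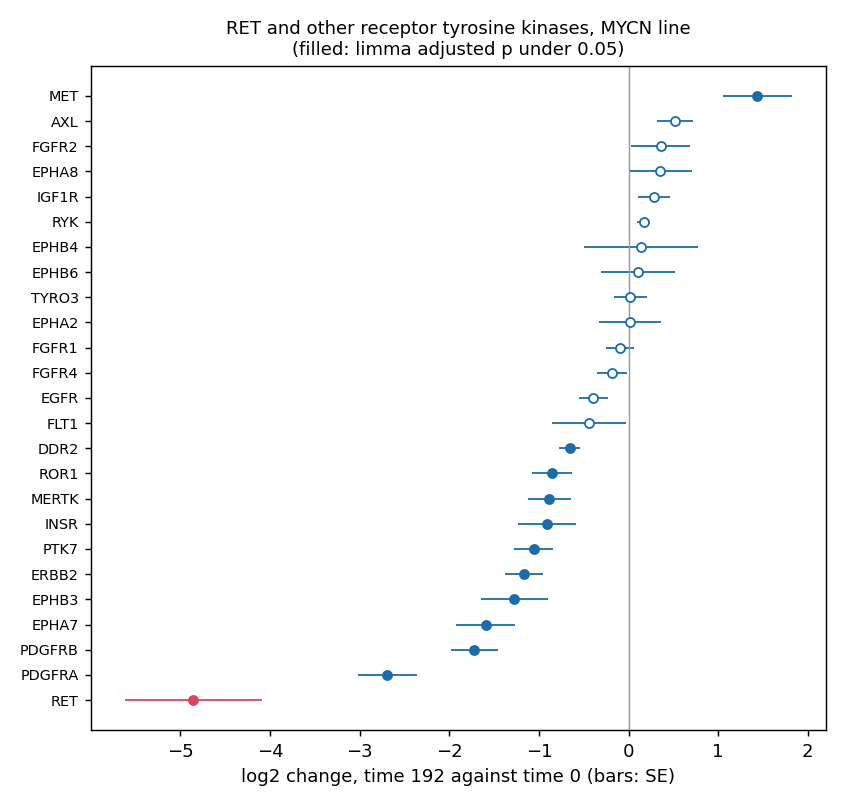
Log2 change of RET (red) and 24 other receptor tyrosine kinases (blue) at time 192 against time 0 in the MYCN line, with SE as bars; filled points passed an adjusted p of 0.05 in limma. MET (1.44) is the filled point on the right, 10 of the blue points on the left are filled, and RET lies at -4.85.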

How the data were processed

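RNA was measured on single-colour Affymetrix U133 Plus 2.0 arrays. The authors deposited linear intensity values, made with MAS5 and GCOS per the submitters' processing notes (versions not given in the sources used here); replicates were not pooled. The mean signal after trimming 2% at each end was 100 in every array, and no further scaling was applied. The number of arrays limits the precision, and dim signals scatter widely on the log scale.

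Of 54675 probe sets, 41091 named 1 gene in the platform annotation, which can be old. After raising 91 values to a floor of 0.1, intensities were taken to log2. The brightest probe set stood for a gene, and a gene was tested when its mean log2 signal reached the 40th percentile (a signal of 12.8). Models were fitted in limma 3.58.1 under R 4.3.3 (lmFit, then eBayes with its trend option), with 14 residual degrees of freedom in the MYCN line, 5 for the mock trend on the time step and 24 for the difference in trend. Two-sided p-values were adjusted over all genes tested (Benjamini-Hochberg) and called under 0.05. The difference between the lines fitted line and time as factors (20 degrees of freedom). The fits were tested on simulated data.

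The members and the gene lists were chosen with earlier results of these data known. Genes named were the members, MYCN, up to 3 higher and 3 lower genes called at time 192 in each pathway list, the 5 genes most like RET and the 2 most like NTRK3. The ligands ARTN and PSPN, tested and not called, were named as well. PHOX2A, DBH, TH, GATA3, ISL1, CHGA, PTPRC, CD44, FOSL1, FN1, TWIST1, PRRX1, SNAI2, WWTR1 and VIM were named from the marker lists, after their values were seen.

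The labels give replicate numbers only. Deviations from the group means correlated above 0.1 with those of the same-numbered array of time 0 for all replicates at times 4, 8 and 192; replicate 2 gave -0.0608, 0.0549 and -0.0248 at times 24, 48 and 96. Pairing by number was therefore accepted at times 4, 8 and 192 only. Alternatives covered normalization, a pseudocount of 16, filters, the choice of probe set, the batch (inferred from bioD control signals, since the labels name none), the replicate block and left-out arrays. Some genes of the lists were not analysed here.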

Additional observations from a re-analysis of the deposited data

Results flagged for a closer look

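The trend of RET over the 7 times differed between the lines by -0.998 per time step on the log2 scale (MYCN line minus mock line, limma adjusted p = 0.000346). It drew attention because RET moved in opposite directions under the same drug, falling in the MYCN line and rising in the mock line, and the test of the difference itself passed the threshold. The mock line has 1 array at each time.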

How the results depend on the processing

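RET at time 192 and the difference in its trend kept their direction and call in all 19 and 11 alternatives run. No result of RET, no line difference of GFRA2 or NGFR and no named list gene at time 192 changed direction. Differences that were not called could change sign. Between the lines, ALK and GFRA1 had 0.0009 and 0.09 in the main fit and -0.15 and -0.09 without replicate 3. Without probe sets marked _s_at or _x_at, RET is not measured, and 0 members were called at times 48, 96 and 192, by the F-test, over time in the mock line and in the difference in trend, where 1 was called otherwise. With only the arrays of the 2 times compared, 1 member was called at time 24 and 0 at time 48. The main fit called 7.18% and 14.7% of all genes at these times, and the share in the altered fits was not computed. The batches are the 2 groups of arrays that bioD signals set apart, since the labels name none. With this inferred batch as a block 1 RET probe set was called at time 24, and within the group of replicates 1 and 2 it was 2 probe sets at time 24 and 1 member between times 24 and 48. Without replicate 3 the MYCN line keeps these same arrays, so the 2 settings are 1 fit, and counts of alternatives hold both. Leaving out 1 replicate of the MYCN line at a time gave 0 to 1 members called at times 48 and 96, by the F-test and between times 24 and 48. It gave 0 to 3 probe sets at times 48 and 96 and 0 to 2 at time 24. With 16 added to the signal, 4 probe sets (3 of RET and NGFR) were called at time 192 in place of 3. Leaving out 1 mock array gave 0 to 1 members over time. With the replicate number as a block, RET had adjusted p of 0.00129, 8.78e-06 and 1.19e-06 at times 48, 96 and 192, and no call of a member changed. The difference between the lines called 3 or 4 members; the fourth was GFRA3 with quantile normalization or equal array medians and NTRK3 without replicate 3 or with 16 added. Signals below the filter limit what can be said of changes in the other 6 members.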

Other observations

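Other genes of the lists differed in level between the lines as GFRA2 did; they were chosen after their values were seen, and 42.4% of all genes were called in the comparison of the lines. TLX2, a homeobox factor of neural crest derivatives, read 54.2 to 95.6 in the mock line and 1 to 10.5 in the MYCN line. DDC, the enzyme that makes dopamine from its precursor, read 17.5 to 40 and 0.5 to 5.90. GATA2 read 513 to 646 and 67.8 to 226, and DOK4 read 771 to 992 and 58.4 to 208. In that comparison (MYCN line minus mock line) the differences were -3.91 for TLX2, -3.93 for DDC, -2.37 for GATA2 and -3.11 for DOK4 (limma adjusted p = 9.74e-10, 4.45e-08, 7.97e-14 and 3.99e-14). Those of TLX2 and DDC are set against signals below the filter. In each of these genes the lowest mock array lay above the highest array of the MYCN line. PDGFRA ran the other way at time 0, with 390 to 429 against 81.5 on the mock array. Chromogranin A (CHGA), a protein of secretory granules, read 37.3 to 132.9 at time 0 and 6.90 to 7.80 at time 192 in the MYCN line, a change of -3.06 (limma adjusted p = 0.0398) that sets a signal against one below the filter, and 102 and 313 in the mock line at those times.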
